A study of Homo sapiens with 2 samples.

Results

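Histone genes were examined in CL1-0 cells, an established human lung adenocarcinoma line. Of 54675 probe sets on the array, 81 had a single annotated gene whose symbol follows the histone gene names (H1-, H2AC, H2BC, H3C, H4C, H2AZ, H2AX, H2AJ, H3-3 or MACROH2A), for 57 genes. These were 43 genes of the clustered, replication-dependent kind, 10 replication-independent genes, and 4 entries that are pseudogenes or an antisense RNA (H4C10P, H2AC5P, H1-9P and H1-10-AS1). The study compared 2 samples with 1 array each, so no difference carries a replicate error or a p-value. In the control sample CL1-0 cells carried a control vector, and in the other sample they carried an FDFT1 expression vector. FDFT1 encodes squalene synthase, which commits the mevalonate pathway to sterols. Both samples were stably transduced, selected with puromycin for 2 weeks and grown at 37 °C in 5% CO2. The labels do not say which promoter drives FDFT1 or whether the cells are a pool or a clone, and the level of FDFT1 was not analysed here. Whether the vector raised FDFT1 was therefore not checked, and each group is named from its label alone.

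Nucleosomes are built from the core histones H2A, H2B, H3 and H4, and linker histone H1 binds the DNA where it enters and leaves them. Most core and linker histone genes lie in clusters and are transcribed when DNA is replicated. Their mRNAs lack introns and end in a stem-loop bound by SLBP, not in a poly(A) tail. The replication-independent genes include those of the variants H2A.Z, H3.3 and macroH2A, which are deposited outside replication and whose mRNAs are polyadenylated. H2AX was counted in this class by its symbol, and the medians were also taken without it. The labels name the standard Affymetrix labelling protocol, which as generally used primes from poly(A) tails, so the signal of a clustered gene may reflect only transcripts that carry such a tail.

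Promoters of most clustered genes held sequence features that the choice by symbol did not use. RefSeq promoters (GRCh38.p14) were found for 75 of 82 protein-coding histone genes, and the 250 bases before each start were searched on both strands for 4 motifs. These were the TATA box TATAAA, the CCAAT box CCAAT, the octamer ATTTGCAT and the H1 box AAACACA. None of them contains another, although matches on the 2 strands may overlap, as a pair of TATA matches does in H2BC12, and ATTGG is the CCAAT box on the other strand. The CCAAT box was in 54 of 64 clustered promoters (84.4%), against 33.0% of all 27305 promoters of this length. It was in every clustered H1, H2A, H2B and H3 promoter but in only 3 of 13 H4 promoters (23.1%), a lower share than among all promoters. The TATA box was in 42 of 64 (65.6%, against 11.1%) and the octamer in 26 of 64 (40.6%, against 1.66%). Both motifs are rich in A and T, and the clustered windows had a median GC content of 42.6%, against 58% for all promoters. How much of these shares follows from base composition was not tested. The octamer was in 14 of 18 H2B and 11 of 16 H2A promoters, but in 1 of 11 H3 promoters and in none of 6 H1 and 13 H4 promoters. These counts are not of separate sites, because 11 H2A genes each start 194 to 248 bases from an H2B gene on the opposite strand, so that their windows hold nearly the same bases, and the 1 H3 promoter with the octamer, that of H3C4, overlaps those of H2AC7 and H2BC7. With overlapping windows merged, the 64 promoters made 52 stretches, of which 42 held the CCAAT box, 34 the TATA box, 17 the octamer and 6 the H1 box. The H1 box was in 6 of 6 clustered H1 promoters, in no other clustered promoter, and in 4.95% of all promoters. Among the 11 replication-independent promoters, 8 held the CCAAT box, 4 the TATA box, 1 the octamer and 1, that of H1-7, the H1 box. A match describes the letters only and is not evidence of a bound factor.

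Promoters of 5 genes are shown because the results turn on them: H1-3, H3C8 and H3C3 differed at least 2-fold between the arrays, H1-10 had the largest difference among histone genes with a mean log2 signal of at least 7, and H2BC12 is a clustered gene with bright signals and little difference. Capitals mark the motifs searched, and each sequence runs 5′ to 3′ on the strand of its gene and ends at the base before the start.
H1-3 (chr6:26234988-26235237, minus strand): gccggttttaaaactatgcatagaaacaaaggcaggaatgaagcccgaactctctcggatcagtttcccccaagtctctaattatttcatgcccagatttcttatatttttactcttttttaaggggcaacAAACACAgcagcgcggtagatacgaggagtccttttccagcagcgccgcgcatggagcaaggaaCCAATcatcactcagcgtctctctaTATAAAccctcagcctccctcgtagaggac
H3C8 (chr6:26271414-26271663, minus strand): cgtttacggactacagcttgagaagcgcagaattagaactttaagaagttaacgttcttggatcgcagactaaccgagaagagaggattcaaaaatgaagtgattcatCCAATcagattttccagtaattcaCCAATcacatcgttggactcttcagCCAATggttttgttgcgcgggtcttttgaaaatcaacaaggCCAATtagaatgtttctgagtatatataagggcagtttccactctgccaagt
H3C3 (chr6:26045134-26045383, plus strand): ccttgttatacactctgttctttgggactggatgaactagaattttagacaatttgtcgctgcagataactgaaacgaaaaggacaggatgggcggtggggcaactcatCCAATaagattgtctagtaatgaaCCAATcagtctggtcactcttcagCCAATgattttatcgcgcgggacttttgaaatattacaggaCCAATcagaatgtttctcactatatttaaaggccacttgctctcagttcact
H2BC12 (chr6:27146859-27147108, minus strand): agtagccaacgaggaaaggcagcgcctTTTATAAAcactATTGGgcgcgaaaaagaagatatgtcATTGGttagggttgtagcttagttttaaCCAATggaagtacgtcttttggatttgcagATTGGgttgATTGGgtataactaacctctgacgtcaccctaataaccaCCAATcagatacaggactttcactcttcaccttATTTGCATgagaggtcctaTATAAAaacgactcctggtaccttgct
H1-10 (chr3:129316287-129316536, minus strand): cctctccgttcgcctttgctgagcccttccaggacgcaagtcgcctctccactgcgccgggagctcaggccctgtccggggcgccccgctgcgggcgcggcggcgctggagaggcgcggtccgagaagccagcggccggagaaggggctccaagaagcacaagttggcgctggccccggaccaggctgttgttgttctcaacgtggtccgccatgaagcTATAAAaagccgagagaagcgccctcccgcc
H1-3 has the H1 box, a CCAAT box and a TATA box. H3C8 and H3C3 differed in opposite directions between the arrays, and each has 4 CCAAT boxes and no exact TATA box, octamer or H1 box. H2BC12 has 6 CCAAT boxes, the octamer and 3 TATA matches, a pair of which overlaps on opposite strands. By contrast H1-10, which lies outside the clusters, has 1 TATA box and none of the others.

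The deposited values are MAS5 signals on a linear scale, and the differences below are on the log2 scale, FDFT1 minus control, after the arrays were centred on each other (a shift of -0.11, FDFT1 minus control). A gene was measured if, after centring, a probe set reached a signal of 12.2, the median of all signals, on at least 1 array; lower values were set to this floor, which is not a detection limit. The value of a gene is that of its brightest measured probe set. The disagreement between probe sets of the same gene, over all genes, gave the error of a value. This error was 0.49 where the mean log2 signal was under 5, 0.30 between 5 and 7, 0.22 between 7 and 9, 0.16 between 9 and 11, and 0.097 beyond 11. It covers probe-level error and not variation between cultures. Signals are printed as deposited, from the control to the FDFT1 array.

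Of the 57 genes, 33 were measured: 25 of 43 clustered genes, 8 of 10 replication-independent genes and none of the other 4 entries. The unmeasured replication-independent genes were the germline linker histones H1-7 and H1-8, whose signals stayed at or below 3.54 and 1.79. The unmeasured clustered genes included H1-1, H1-5, the testis-specific H1-6 and H2BC1, H3C11 and H4C9, at up to 12.3 on either array as deposited. Of the 70 clustered genes in RefSeq, 19 appeared only on probe sets annotated to several genes, as did H3-3B among the replication-independent genes.

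**Figure D1:**
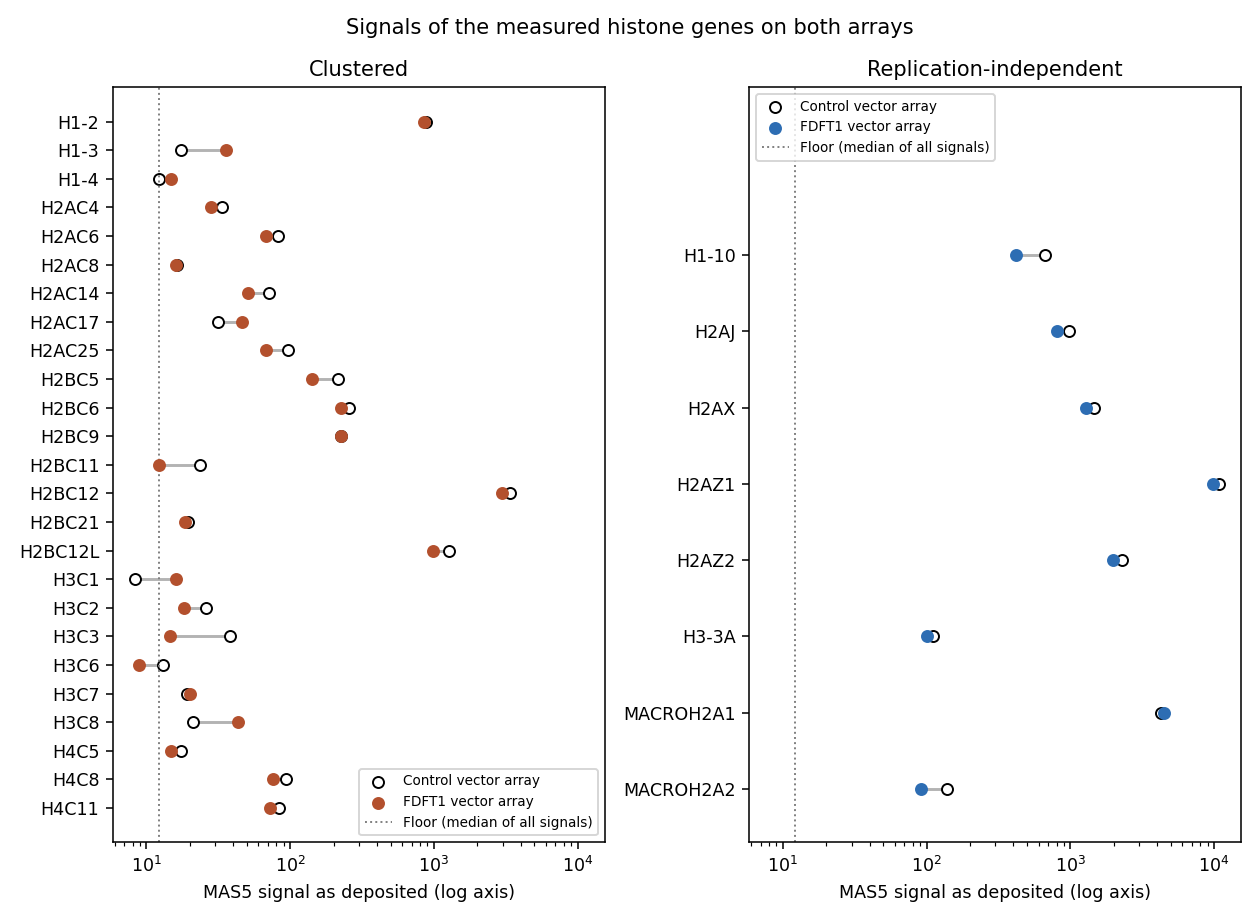
MAS5 signals as deposited (log axis) of the brightest probe set of each measured histone gene, with open points for the control array, filled points for the FDFT1 array and a dotted line at the floor of 12.2, which was applied after centring. Among clustered genes, H1-3, H3C8 and H3C3 show the widest gaps at signals under 50, and signals of different genes are not comparable.

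The typical histone gene differed little between the arrays, while a few dim ones differed at least 2-fold. The RNA is that of whole cultures, so fewer cells in S phase and less histone RNA per cell cannot be told apart. The 33 measured genes had a median log2 difference of -0.09, against -0.0013 over all 12968 measured genes, and 22 of 33 were below 0, where 50.2% of all measured genes were. Without _x_at and _s_at probe sets, 20 histone genes were left, of which 11 were below 0, with a median of -0.025. The median was -0.09 for the 25 clustered genes and -0.09 for the 8 replication-independent genes, a difference between class medians of -0.0014. Among clustered genes 15 were below 0 and 10 above, and among replication-independent genes 7 were below 0 and 1 above. The latter split depends on taking the brightest probe set. Of the 21 measured replication-independent probe sets 13 were below 0, where 50.1% of all measured probe sets with 1 gene were. With means in place of medians the classes stood at -0.03 and -0.16, clustered minus replication-independent 0.12, so the closeness of the medians does not extend to the means. The classes also differ in brightness, with median log2 signals of 4.94 for clustered and 10.1 for replication-independent genes. Among genes with a mean log2 signal of at least 5, medians were -0.14 for 12 clustered and -0.09 for 8 replication-independent genes. At that brightness 16 of 20 histone genes were below 0, against 51.9% of all genes. Under 5, the median was 0.02 for 13 clustered genes, against 0.06 for all genes. As deposited, without centring, the 34 measured histone genes had a median of -0.19, and the median of all genes was itself below 0, at -0.11.

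Of the histone genes 2, H1-3 and H3C8, were higher with FDFT1 by at least 2-fold, a size that 0.571% of all measured genes reached. Lower by at least 2-fold was 1, H3C3, where 0.578% of all measured genes were. At 1.5-fold there were 3 higher, with H2AC17 added (3.91% of all measured genes), and 2 lower, with H2BC11 added (3.28%). The 3 genes past 2-fold, H1-3, H3C8 and H3C3, are clustered genes with a mean log2 signal under 5, a range that held 13 of the 25 clustered genes and none of the replication-independent ones. In that range 4.07% of all genes differed at least 2-fold either way. Over all measured genes 7.25% differed by more than 2 probe-set errors. Of the 33 histone genes 6 did: H1-3, H3C8 and H2AC17 above 0, and H3C3, H2BC5 and H1-10 below 0.

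**Figure D2:**
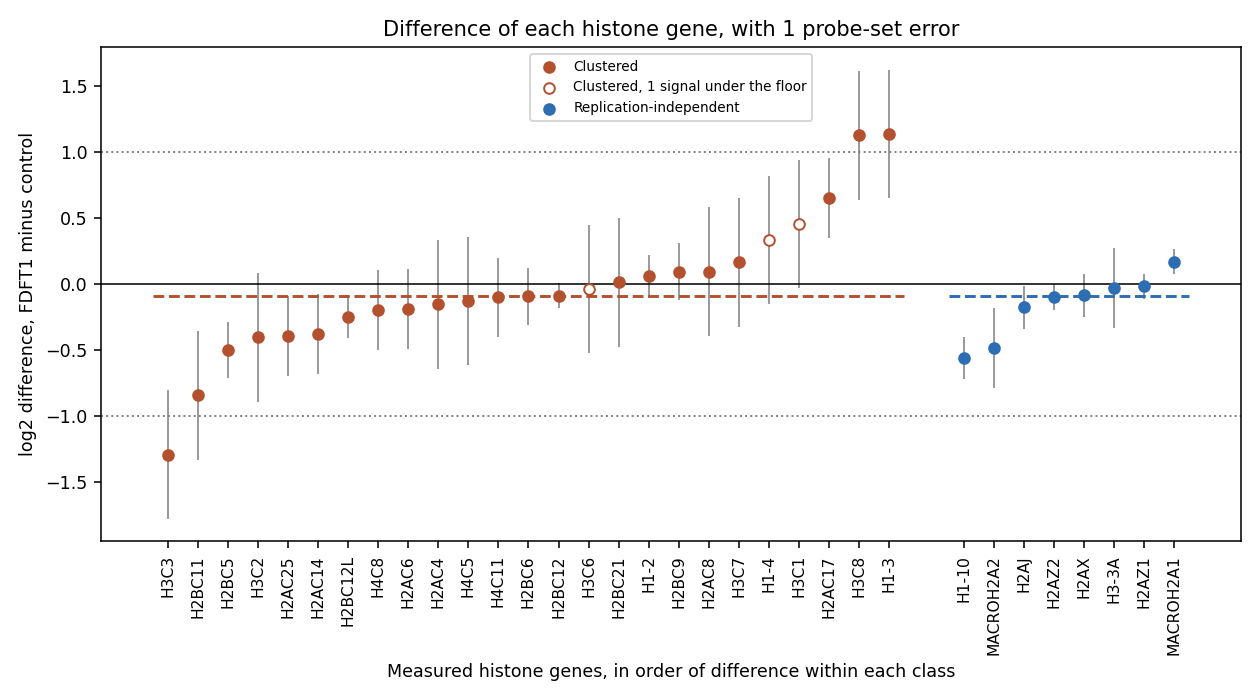
The log2 difference (FDFT1 minus control, centred) of each measured histone gene, ordered within the clustered and replication-independent classes. Bars are 1 probe-set error, dashed lines the class medians of -0.09 and -0.09, dotted lines 2-fold, and open points genes with 1 signal under the floor; H1-3 and H3C8 lie above the upper dotted line and H3C3 below the lower one.

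The linker histones were split between the classes. H1-3 went from 17.4 to 35.7, a difference of 1.14 (error 0.49, 2.2-fold) on its 1 probe set. H1-2, a broadly expressed H1 subtype, went from 877 to 851, at 0.06 (error 0.16). H1-4 was at 0.34 (12.3 to 14.8, error 0.49) with its control value under the floor after centring. All 3 measured clustered H1 genes were therefore above 0 after centring, but H1-2 was at -0.04 as deposited, and the values of H1-2 and H1-4 were smaller than their errors. The replication-independent H1-10, also called H1X, went the other way, from 662 to 418, a difference of -0.56 (error 0.16, 1.47-fold lower). Its mean log2 signal of 9.04 lies just over the step at 9, below which the error is 0.22. H1-10 lay between -0.55 and -0.66 under every scaling of the arrays tried, and it has 1 probe set, with an _s_at identifier.

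Of the 6 measured clustered H2A genes 4 were below 0, with a median of -0.17. H2AC17 was the exception in size, from 31.7 to 46.2, at 0.65 (error 0.30), and H2AC8 was at 0.10 (16.2 to 16.1, error 0.49), or -0.0097 as deposited. H2AC25, which lies outside the large cluster on chromosome 6, was at -0.39 (96.2 to 68.2, error 0.30). H2AC14 was at -0.38 (71.1 to 50.8), H2AC6 at -0.18 (82.8 to 67.7) and H2AC4 at -0.15 (33.5 to 28.0).

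Of the 7 measured clustered H2B genes 5 were below 0, with a median of -0.09. H2BC5 was lower on both of its probe sets, from 215 to 142, at -0.50, and from 192 to 148, at -0.28, with an error of 0.22 each; both have _x_at identifiers. H2BC12 was at -0.08 (3387 to 2968, error 0.097). H2BC12L, an H2B gene on chromosome 21 counted here by its symbol, was at -0.25 (1265 to 991, error 0.16). H2BC11 was at -0.84 (23.5 to 12.2, error 0.49), with its FDFT1 signal near the floor. Probe sets that H2BC11 shares with H2BC8 lay at 0.22 (29.8 to 32.4, error 0.49) and -0.12 (36.6 to 31.3, error 0.30). H2BC6 was at -0.09, and H2BC9 at 0.10 and H2BC21 at 0.02 changed sign to -0.01 and -0.09 as deposited.

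The 6 measured clustered H3 genes were all dim, with mean log2 signals under 5. H3C8 was at 1.13 (21.2 to 43.2, error 0.49, 2.19-fold) on an _x_at probe set, and H3C3 at -1.29 (38.1 to 14.5, error 0.49, 2.45-fold lower). H3C1 was at 0.46 (8.37 to 16.1), a lower bound because its control value was under the floor, and H3C7 at 0.17 (19.2 to 20.1). H3C2 was at -0.40 (26.0 to 18.3) and H3C6 at -0.03 (12.9 to 8.86), also a bound. With 3 of 6 above 0 and 3 below, their median was 0.07.

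The H4 genes lay on the same side. H4C8 was lower on both probe sets, at -0.19 (93.9 to 76.3, error 0.30) and -0.32 (36.8 to 27.4, error 0.49). H4C5 was at -0.13 (17.4 to 14.8) and H4C11 at -0.10 (83.6 to 72.5), each smaller than its error. All 3 measured H4 genes were below 0 at each scaling tried, but none exceeded its error. The scalings use the same 2 arrays, so they cannot test a shared direction.

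**Figure D3:**
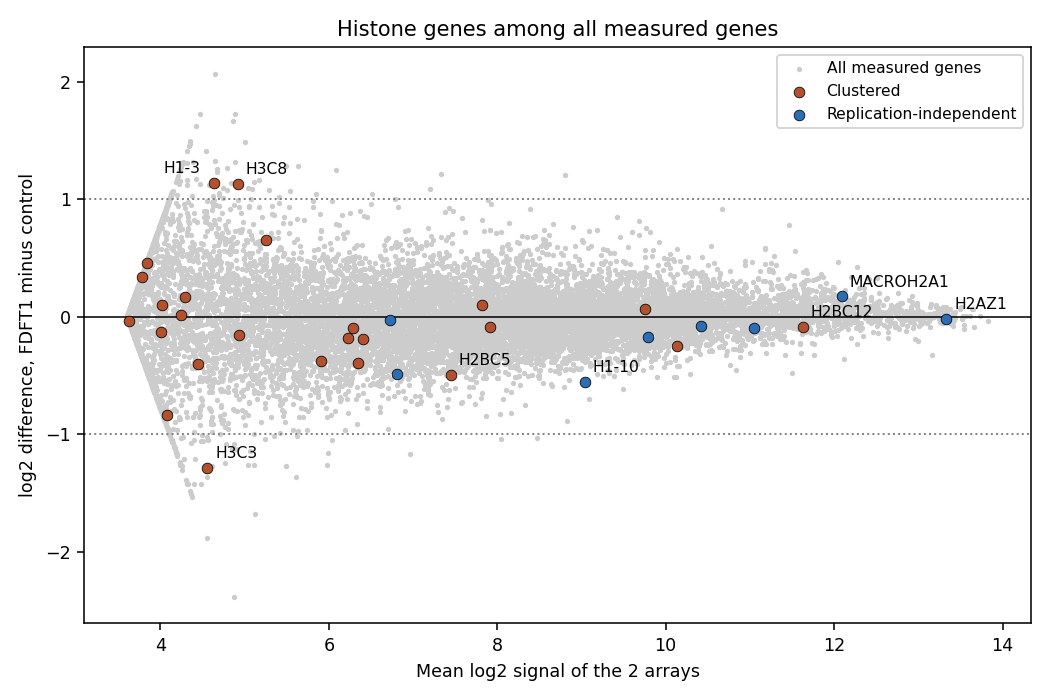
The log2 difference (FDFT1 minus control, centred) against the mean log2 signal of the 2 arrays for 12968 measured genes in grey and the 33 histone genes in colour, with dotted lines at 2-fold. The 3 histone genes past 2-fold sit at the dim end, where the grey points spread most, while H1-10 at -0.56 lies near the lower edge of genes of its signal.

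The H2A variants outside the clusters were measured on several probe sets each, which lets their values be compared within a gene. H2AZ1, the main H2A.Z gene, was at -0.02 (10758 to 9888) and 0.07 (8472 to 8239), both within the error of 0.097. H2AX, whose protein is phosphorylated at DNA breaks, was below 0 on 3 of 3 measured probe sets, from 1457 to 1278 at -0.08 (error 0.16), and at -0.21 and -0.25 on the dimmer ones (error 0.30). No H2AX value exceeded its error. H2AZ2, the other H2A.Z gene, was at -0.09 (2266 to 1973, error 0.097) on its brightest probe set but 0.40 (727 to 889, error 0.16) on the next, with 0.18 and -0.02 on the others.

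H2AJ, an H2A variant that accumulates in senescent cells, gave opposite values by probe set. Its bright pair, both _x_at probe sets, lay at -0.17 (971 to 800) and -0.20 (902 to 729), with errors of 0.16. Its dim pair lay at 0.83 (46.3 to 76.5) and 0.63 (27.5 to 39.6), with errors of 0.30. The spread within H2AJ, 1.03 on the log2 scale, was the widest of the 7 histone genes with at least 2 measured probe sets. With the mean of its probe sets H2AJ stood at 0.27, so its direction depends on the probe set.

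H3-3A, which encodes histone H3.3, was at -0.03 (111 to 101, error 0.30) on its own probe set. MACROH2A1, a macrodomain variant of repressed chromatin, was alone above 0 among the replication-independent genes, at 0.17 (4274 to 4477, error 0.097). Its other measured probe sets lay at 0.03 (1936 to 1832), -0.21 (147 to 119), -0.45 (55.5 to 37.9) and 0.18 (36.7 to 38.6), and without _x_at and _s_at probe sets the gene stood at -0.21. MACROH2A2, its paralog, was at -0.48 (138 to 91.6, error 0.30).

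**Figure D4:**
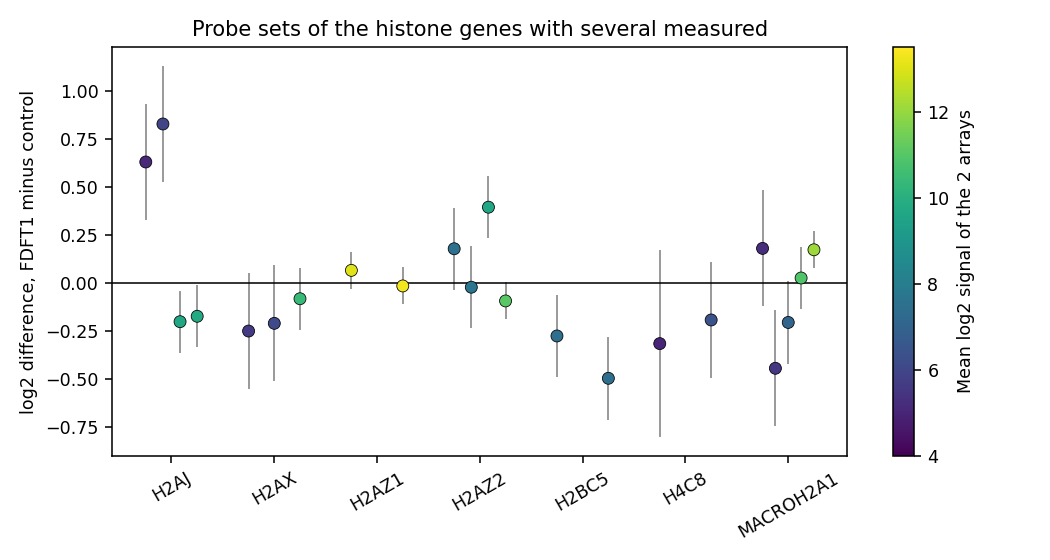
The log2 difference (FDFT1 minus control, centred) of each measured probe set of the 7 histone genes with several, ordered by signal within a gene and coloured by mean log2 signal, with bars of 1 probe-set error. Probe sets of H2AX, H2BC5 and H4C8 lie below 0, while those of H2AJ, H2AZ1, H2AZ2 and MACROH2A1 lie on both sides.

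Because histone paralogs are near identical, 28 further probe sets are annotated to several genes with at least 1 histone among them. They were left out of the counts above, and 24 were measured, 12 below 0 and 12 above, with none at least 2-fold different. Of all 24634 measured probe sets with 1 gene, 191 were at least 2-fold higher and 175 lower. The 3 measured H4 probe sets, each annotated to 14 H4 genes, lay at -0.32 (7910 to 5903, error 0.097), -0.30 (57.0 to 42.9, error 0.30) and -0.33 (15.9 to 5.19, error 0.49, a bound). The first of these was the only shared probe set to differ by more than 2 errors. The 8 probe sets shared by H3-3A and H3-3B, together with a pseudogene or a microRNA, ranged from -0.09 to 0.13 with a median of 0.01, and the lowest signal of the 7 brighter ones on either array was 5069.8. The 5 H2B probe sets ranged from -0.12 to 0.62 and the 5 H2A probe sets from -0.53 to 0.31. A probe set shared by 10 H3 genes, H3C3 and H3C8 among them, lay at -0.17 (24.9 to 20.6, error 0.49). Another, which adds H2AC7 to those genes, lay at -0.45 (55.2 to 37.6, error 0.30). The probe set of H3C4 and H2AC7 alone lay at 0.46 (53.4 to 68.0, error 0.30). These probe sets cannot say which of their genes gave the signal, and genes of a family may also share signal on _x_at and _s_at probe sets, which gave the value of 10 of 25 clustered and 6 of 8 replication-independent genes.

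**Figure D5:**
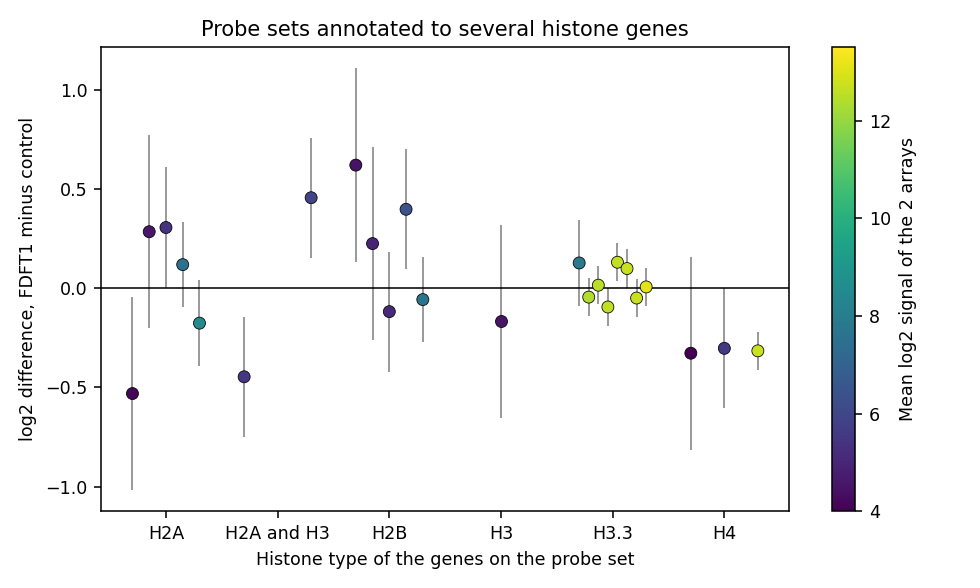
The log2 difference (FDFT1 minus control, centred) of the 24 measured probe sets annotated to several genes, grouped by histone type and coloured by mean log2 signal, with bars of 1 probe-set error. The H4 probe sets lie together near -0.32 and the H3.3 probe sets within 0.13 of 0, while those of H2A and H2B lie on both sides.

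Many H2A and H2B genes face each other across a shared promoter region. In RefSeq, 13 pairs of histone genes start on opposite strands within 1000 bases and point away from each other, and 11 of them pair an H2A with an H2B gene at starts 194 to 248 bases apart. None of these 11 pairs had both genes measured on probe sets of their own, so pairs could not be compared. For H2AC17 (0.65), H2AC14 (-0.38), H2AC25 (-0.39) and H2BC11 (-0.84), the partner was unmeasured or had no probe set of its own. The 1 pair with both measured, H3C7 and H2BC9, at starts 979 bases apart, was at 0.17 and 0.10.

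Of the genes that make and process histone mRNA, all 23 listed were measured, with a median of -0.02, 13 below 0 and none past 2-fold. Over all measured genes the median was -0.0013 and 50.2% were below 0. The list had a median log2 signal of 9.44, and 2-fold differences were rare among bright genes. Of all 7258 genes with a mean log2 signal of at least 7, 3 were at least 2-fold higher and 2 lower. SLBP, which binds the stem-loop, was at 0.06 (2981 to 2892, error 0.097), and NPAT, which activates clustered histone genes at the start of S phase, at 0.10 (178 to 177, error 0.22). CPSF2, a subunit of the cleavage complex, was at 0.38 (406 to 493, error 0.22) with 3 of 3 probe sets higher. SRRT was at 0.16 on its brightest probe set but above 0 on only 1 of its 4. The lowest were E2F1, a transcription factor of the S phase programme, at -0.50 (177 to 116, error 0.22) with both probe sets lower, and SYMPK, the scaffold of the cleavage complex, at -0.36 (176 to 127, error 0.22) with 3 of 3 probe sets lower.

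Against 50.2% of all measured genes, 20 of 30 histone chaperones and exchange factors were below 0, with a median of -0.08 and none past 2-fold. Their median log2 signal was 9.15, a brightness at which 2-fold differences were rare. The lowest were TONSL at -0.30 (95.1 to 71.8, error 0.30) and SUPT6H, which handles histones during transcription, at -0.29 (490 to 373, error 0.22, 3 of 3 probe sets lower). Both genes of the H3-H4 chaperone ASF1 were below 0, ASF1B at -0.26 (556 to 431, error 0.22) and ASF1A at -0.19 (1503 to 1225, error 0.16, lower on 1 of 2 probe sets), as was HIRA, which deposits H3.3, at -0.28 (563 to 432, error 0.22). DAXX and ATRX, the other H3.3 deposition complex, were at -0.03 and 0.10, with 1 of 2 and 1 of 4 probe sets above 0. The highest were DEK at 0.34 (4347 to 5114, error 0.097) and UBN1, a HIRA partner, at 0.31 (193 to 222, error 0.22, higher on 1 of 2 probe sets). ANP32E, which removes H2A.Z, was at 0.22 with 2 of 3 probe sets higher.

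The 22 S phase genes had a median of -0.03, with 12 below 0 and none past 2-fold. These genes were bright too, with a median log2 signal of 10.6. PCNA, the replication clamp, was at 0.13 (5120 to 5211, error 0.097), MCM4 at 0.28 and RRM1 at 0.27, while CDC25A was at -0.21 and MCM2 at -0.19. MCM4 was above 0 on 3 of 4 probe sets, RRM1 on 1 of 2 and CDC25A on 1 of 3, and MCM2 has 1 probe set. Of 14 histone genes outside the naming rule, 5 had a probe set and 1 was measured, the centromeric H3 gene CENPA, at -0.04 (438 to 397, error 0.22).

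The labels describe a type II alveolar cell, and 7 of 10 type II markers with a probe set were measured. SFTPC, SFTPB and NKX2-1 had signals of at most 29.3, 35.3 and 31.1, while SFTPD, SLC34A2 and NAPSA were under the floor on both arrays, so these 6 were dim or under the floor. The other 4 markers were brighter: LPCAT1 at 934 on the control and 787 on the FDFT1 array, ETV5 at 383 and 281, ABCA3 at 79.9 and 55.6, and LAMP3 at 53.0 and 58.8. Blood markers (4 of 6 measured) had summed signals of 90.8 on the control and 93.4 on the FDFT1 array, and fibroblast and endothelial markers (3 of 8 measured) 120 and 141.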

How the data were processed

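RNA of 2 CL1-0 samples was hybridised to 1 Affymetrix array each, from 6 µg of total RNA. The values deposited by the authors are probe set intensities from MAS5, on a linear scale, per the submitters' processing notes and the range of the values; version, scaling target and detection calls: not given in the sources used here. MAS5 corrects with mismatch probes and applies a single scaling factor per array. The number of arrays limits the precision.

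Log2 signals, without the 62 control probe sets, were centred on the median difference of probe sets at or above the floor in both arrays and then floored at 12.2. A gene took its brightest measured probe set among the 41091 with 1 annotated gene. Python 3.11.15 was used, with numpy 2.4.6, pandas 2.3.3 and statsmodels 0.14.6, and the steps were tested on simulated data. The probe-set error is the SD, over genes, of how far the brightest 2 probe sets of a gene in the same signal range differ, divided by the square root of 2. No test was run. The members and lists were chosen with earlier results of these data known. Named are all measured histone genes all type II markers and, of the lists of histone mRNA, chaperone and S phase genes, up to 2 genes with the largest differences above 0 and up to 2 below, besides SLBP, NPAT, CENPA, PCNA, ASF1A, ASF1B, HIRA, DAXX and ATRX; ANP32E was named after its value was seen. Alternatives were no centring, quantile and lowess scaling, no floor, a floor at the 75th percentile (99.4), the mean of probe sets, no _x_at or _s_at probe sets, thresholds of 1.5-fold and 3-fold, every entry of the naming rule, no H2AX, and means over genes.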

Additional observations from a re-analysis of the deposited data

How the results depend on the processing

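No paired analysis was possible because each group has 1 array and the labels give no replicate numbers, and for the same reason no array could be left out. As deposited, the medians were -0.19 for all measured histone genes, -0.19 for clustered and -0.19 for replication-independent genes, and 48 of all measured genes were at least 2-fold higher and 109 lower, against 74 and 75 after centring. With the mean over genes, replication-independent genes stood at -0.16 and the class difference at 0.12. With medians over probe sets, chosen after seeing the data, replication-independent probe sets stood at -0.028. Without _x_at and _s_at probe sets, 20 histone genes were left, with medians of -0.025 for all and -0.015 for replication-independent genes, and 1 was at least 2-fold higher, as H3C8 has an _x_at probe set only. Without a floor, H3C1 stood at 1.05, 5 histone genes were at least 2-fold higher and 5 lower, of 53, and 2061 and 1679 of all 19775 genes. With the floor at a signal of 99.4, 14 histone genes were left, with 0 at least 2-fold higher and 0 lower, and 3 and 2 of 8063 genes overall. At 1.5-fold, 2 histone genes were lower, with 507 genes higher and 425 lower overall; at 3-fold, 0 histone genes were higher and 0 lower, with 5 and 3 overall. Quantile and lowess scaling and leaving out H2AX moved none of the histone medians or counts by more than the probe-set error of the class. Counting every entry of the naming rule could not change the medians, because none of the 4 further entries was measured. Of 199 values of single genes under the alternatives, 188 stayed within the error of the gene and 11 moved further, and 13 changed sign. None of the 11 was for a gene past 2-fold in the main results, while H3C1 passed 2-fold only without a floor. The 188 do not measure stability, because many could not move. Averaging probe sets cannot change the 23 clustered and 3 replication-independent genes with 1 measured probe set. Without a floor, a gene with both signals over the floor keeps its value. Leaving out the centring shifts such genes by the same -0.11, which in size exceeds only the error of 0.097. The signs of H2AJ, H2AZ2 and MACROH2A1 changed both with the mean of probe sets and without _x_at and _s_at probe sets. The causes were not tested. Under a log2 signal of 5 the error of 0.49 limits what 1 probe set can show.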
